A study of Mus musculus with 2 samples.

Results

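The growth signals of the macrophage lineage were examined as 6 genes, taken by symbol from the 32285 genes of the count matrices. They were Csf1 and Il34, the ligands of the CSF-1 receptor, Csf1r, the receptor itself, Csf2, which encodes GM-CSF, and Csf2ra and Csf2rb, which encode the alpha chain and the common beta chain of its receptor. UMIs (unique molecular identifiers, each standing for 1 captured transcript) of each gene were summed over the barcodes of each cell class in each library, so that the cells that made a ligand, the cells that carried its receptor and the difference between the 2 genotypes could be read side by side. A seventh gene, Csf2rb2, was carried along because it is a near copy of Csf2rb.

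Each genotype was 1 mouse and 1 library of single cells from the injured kidney. The control, called Cre-, was a littermate without Cre, and the mutant, PHDTiEC, carried Cdh5-CreERT2 and floxed alleles of Phd1, Phd2 and Phd3. Cdh5-CreERT2 is driven by the promoter of VE-cadherin and is active in endothelial cells after tamoxifen, so that any difference in another cell type lay outside the cells that the driver targets. Both mice were males of 8 to 10 weeks, both had 1 renal artery clamped for 25 minutes at 37 °C, both received 4 doses of 3 mg tamoxifen per mouse on alternate days from the day after surgery, and both were analysed at day 14. PHD1, PHD2 and PHD3 are the prolyl hydroxylases that mark the hypoxia-inducible factors (HIF) for degradation, and their genes are listed as Egln2, Egln1 and Egln3.

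CSF-1 and IL-34 are unrelated in sequence and share 1 receptor, a tyrosine kinase of mononuclear phagocytes on which the survival and proliferation of most tissue macrophages depend. In the kidney both ligands are known to be made by tubular epithelium after ischemic injury. GM-CSF acts through a different receptor, in which the alpha chain binds the cytokine and the beta chain, shared with the receptors for IL-3 and IL-5, signals through JAK2 and STAT5. It acts on neutrophils, monocytes, dendritic cells and macrophages. Mice carry a second beta chain gene next to Csf2rb, named Csf2rb2, whose product serves the IL-3 receptor alone.

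The promoters of 2 members are shown because the floxed genes control HIF and because these were the members whose RefSeq window held a match to a motif searched. Each is the 250 bases before the RefSeq start on GRCm38.p6, read 5′ to 3′ along the gene, which lies on the minus strand in both cases. Capitals mark matches on either strand to the HIF core (ACGTG or GCGTG), to the core of sites for PU.1 (GAGGAA), a factor of myeloid cells, or to 9 letters of a kappaB site (GGGACTTTC), the target of NF-kappaB. The Csf1 promoter lies at chr3:107760470-107760719 and the Csf2ra promoter at chr19:61228419-61228668.
Csf1: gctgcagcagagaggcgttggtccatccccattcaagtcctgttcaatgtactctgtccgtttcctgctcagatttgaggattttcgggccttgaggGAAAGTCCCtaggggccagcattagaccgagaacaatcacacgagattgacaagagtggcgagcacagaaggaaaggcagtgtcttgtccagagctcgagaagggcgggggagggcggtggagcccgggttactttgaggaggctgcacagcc
Csf2ra: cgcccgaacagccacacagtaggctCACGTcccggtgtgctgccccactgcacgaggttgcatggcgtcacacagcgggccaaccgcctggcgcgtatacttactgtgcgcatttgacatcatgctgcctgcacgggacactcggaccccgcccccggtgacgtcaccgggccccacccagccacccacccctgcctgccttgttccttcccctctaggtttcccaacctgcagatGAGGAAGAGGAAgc
The Csf1 window held the kappaB letters on the other strand, 153 to 145 bases before the start, and neither HIF core. Of the 32851 promoter windows of this length, 0.289% held those 9 letters. The Csf2ra window held the PU.1 core in 2 copies side by side, from 14 to 3 bases before the start, and ACGTG on the other strand, 225 to 221 bases before it. The PU.1 core was present in 23.3% of all windows, ACGTG in 16.6% and 1 or the other HIF core in 38.6%. The Csf2rb2 window held 1 PU.1 core and no HIF core, and the Csf2 window held none of the 4 motifs. That Csf2 window, chr11:54249900-54250149, lay upstream of the GENCODE vM21 start of the gene at 54249667. The bases between that start and the window were not searched. Il34, Csf1r and Csf2rb were not among the RefSeq windows used here.

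Csf2rb and Csf2rb2 lie 20030 bases apart on chromosome 15 and point away from each other. Their coding sequences, of 2688 and 2634 bases in GENCODE vM21, were 92.9% identical over the alignment. The first stretch of 90 bases with the most differences is shown, with the 16 different bases in capitals, from coding base 308 of Csf2rb and 311 of Csf2rb2.
Csf2rb: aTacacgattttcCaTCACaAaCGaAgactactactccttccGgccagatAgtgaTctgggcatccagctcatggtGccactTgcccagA
Csf2rb2: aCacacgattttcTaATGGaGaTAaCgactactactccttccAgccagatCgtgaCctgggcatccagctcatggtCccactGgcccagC
The libraries read transcripts from the 3′ end, and the last 300 bases of the 2 transcripts were 77.1% identical. How many reads the counting gave to the wrong copy was not tested, and values of both genes are uncertain to that extent.

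The libraries held 136004367 UMIs for Cre- and 146758812 for PHDTiEC, with 8548 and 9309 barcodes kept and medians of 7500 and 7898 UMIs per barcode. The kept sets shared 28 barcode sequences. With 1 library per genotype there is no test of genotype. Every interval given is a 95% interval of counting error only, Poisson for a level and Clopper-Pearson for a share or a ratio. A level is given in CPM, the UMIs of the gene per 1000000 UMIs of that class in that library, and a log2 ratio is PHDTiEC over Cre-. In endothelial-like cells Egln1 stood at 67.6 CPM in Cre- and 202 CPM in PHDTiEC, Egln3 at 25.9 and 160 CPM, and Egln2 at 44.1 and 39.3 CPM. Neither Egln1 nor Egln3 was lower in the library labelled PHDTiEC, so these sums do not check its label. Reads from the 3′ end need not cover a floxed exon.

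Barcodes fell into 29 clusters, of which 22 carried 1 of 16 cell class names and 7 were left by number. Clusters were named from marker genes that included no member, and no member was used to form them. Macrophage-like cells were the largest class, with 2693 barcodes in Cre- and 2892 in PHDTiEC, and all 10 macrophage markers were detected in both libraries. Neutrophil-like cells numbered 628 and 662, monocyte-like cells 243 and 163, dendritic-like cells 195 and 240, T-like cells 613 and 740 and endothelial-like cells 316 and 440. The 6 tubular classes were named for the proximal tubule (PT), the injured PT, the intercalated cell (IC), the collecting duct (CD), the distal convoluted tubule (DCT) and the thick ascending limb (TAL). Clusters 6, 15, 16 and 27 scored highest for IC, podocyte, injured PT and T cell markers. They met the naming rule but were left by number by hand after their marker evidence was read. Reads of free RNA also reached each class. Its estimated share, from markers of other cell types, was 4.36% and 4.46% of the UMIs of macrophage-like cells, 19.8% and 21.9% in endothelial-like cells and 53.0% and 27.4% in pericyte-like cells. The estimate counts every UMI of those markers as free RNA and can be too high. In pericyte-like cells of Cre- it would give 73.4 CPM of Csf1r, above the 53.4 CPM counted, so that 53.0% was too high there.

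**Figure D1:**
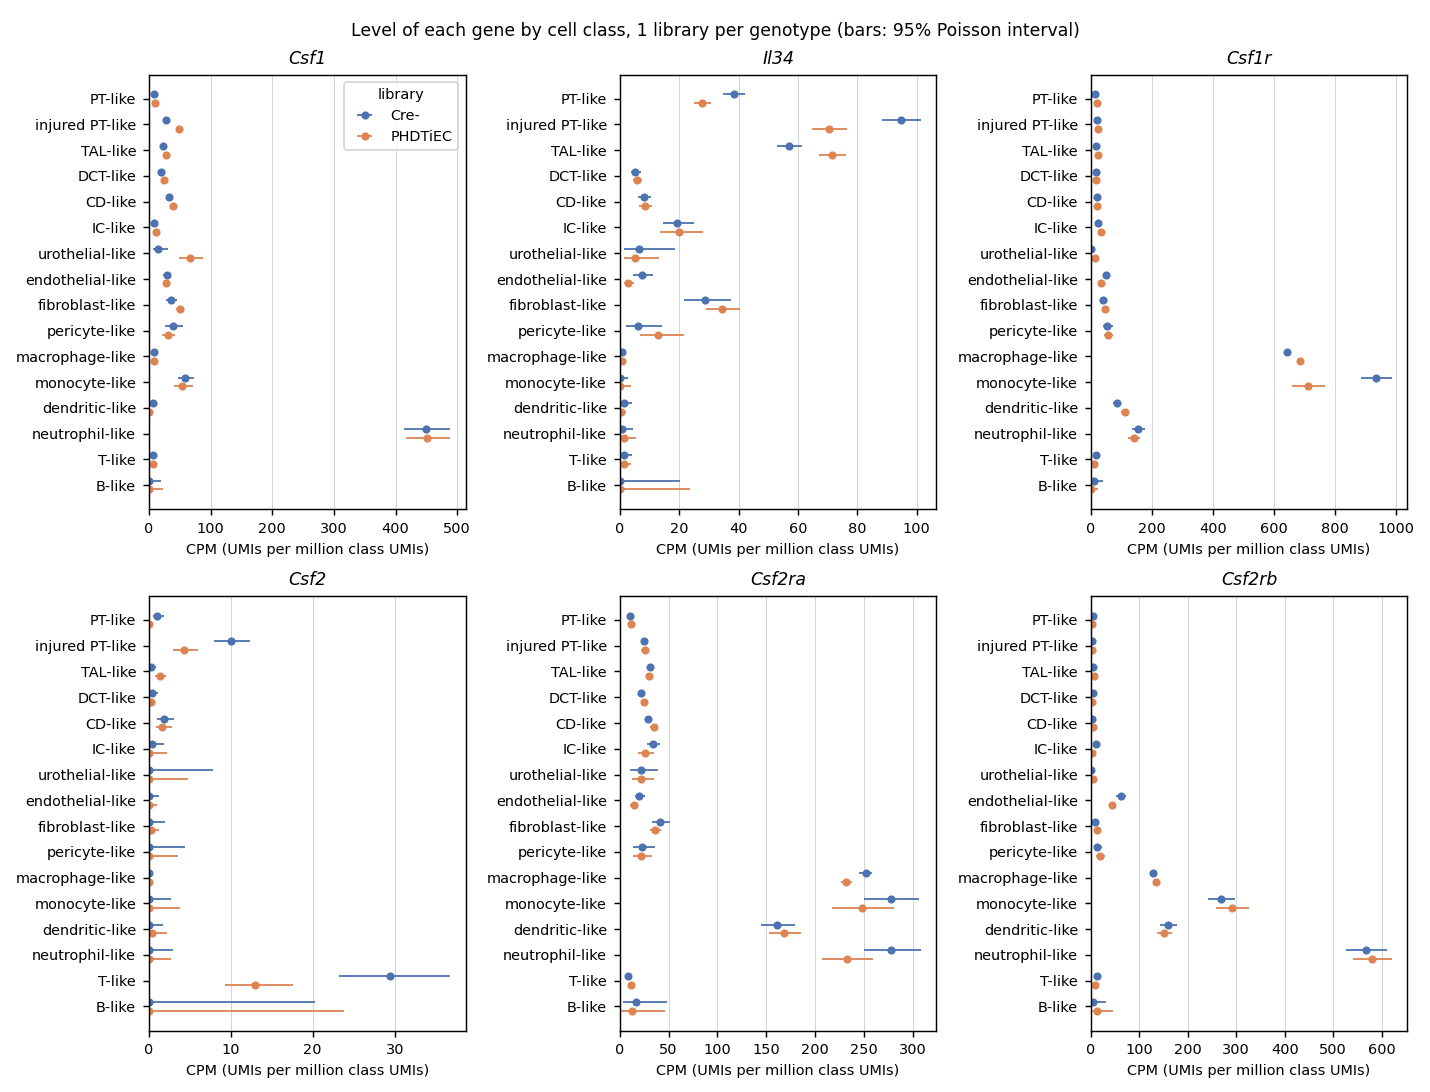
Level of each of the 6 genes (x axis, CPM, linear from 0) in the 16 named cell classes (y axis), with 1 point per library and a 95% Poisson interval. Csf1 stood above 400 CPM in neutrophil-like cells alone, Il34 was highest in injured PT-like and TAL-like cells, and Csf1r, Csf2ra and Csf2rb were highest in myeloid classes.

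Csf1, the ligand with the broadest set of sources, reached its highest level in neutrophil-like cells. It stood there at 450.0 CPM (413.7 to 488.6; 566 UMIs in 220 cells) in Cre- and 452 CPM (416 to 489; 610 UMIs in 244 cells) in PHDTiEC. Monocyte-like cells, the next class in Cre-, stood at 59.1 and 54.5 CPM. In PHDTiEC the next class was urothelial-like cells, at 66.6 CPM. The intervals of neutrophil-like and monocyte-like cells did not come near each other in either library. The 2 neutrophil-like clusters were alike in this, with 438 and 404 CPM in the cluster led by S100a9 and Retnlg and 465 and 507 CPM in the cluster led by Mmp9 and Il1r2. Between the libraries the level in neutrophil-like cells differed by a log2 ratio of 0.01 (-0.16 to 0.17).

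Because neutrophil-like barcodes are shallow, with a median of 1774 UMIs in Cre-, shares of cells were also read after thinning each barcode to 2000 UMIs. Csf1 was then seen in 32.0% of the 203 neutrophil-like barcodes deep enough in Cre- and in 34.7% of 213 in PHDTiEC, against 35.0% and 36.9% unthinned. The thinning left out 425 and 449 shallower barcodes. In T-like cells, with medians of 3232 and 3354 UMIs, the thinned shares were 0.916% and 1.04%. Csf1 was therefore spread over about 1 neutrophil-like cell in 3 at this depth, and no barcode held more than 15 of its UMIs.

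Neutrophil-like cells are small in RNA and gave a modest part of all Csf1 UMIs. They held 1.06% of the UMIs of all genes in Cre- and 1.02% in PHDTiEC, but 18.2% (16.9 to 19.6) and 14.4% (13.3 to 15.5) of the Csf1 UMIs. The 6 tubular classes together held 33.5% and 34.5% of Csf1 UMIs, beside a part of all UMIs of 42.04% and 40.5%. These classes leave out clusters 6 and 16, which scored highest for IC and injured PT markers. Csf1 stood at 18.5 and 30.2 CPM in the first, on 17410257 and 20160230 UMIs of all genes, and at 76.0 and 112 CPM in the second. With those clusters the epithelial share of Csf1 would be larger. Endothelial-like cells, the cells of the driver, held 2.67% (2.13 to 3.30) and 2.47% (2.03 to 2.99). Among them Csf1 was higher in the Plvap- and Kdr-positive cluster, at 54.8 and 47.7 CPM, than in the Sox17-positive cluster, at 13.1 and 17.8 CPM. The log2 ratio in endothelial-like cells was -0.07 (-0.50 to 0.36), so that no difference was detectable at this depth.

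**Figure D2:**
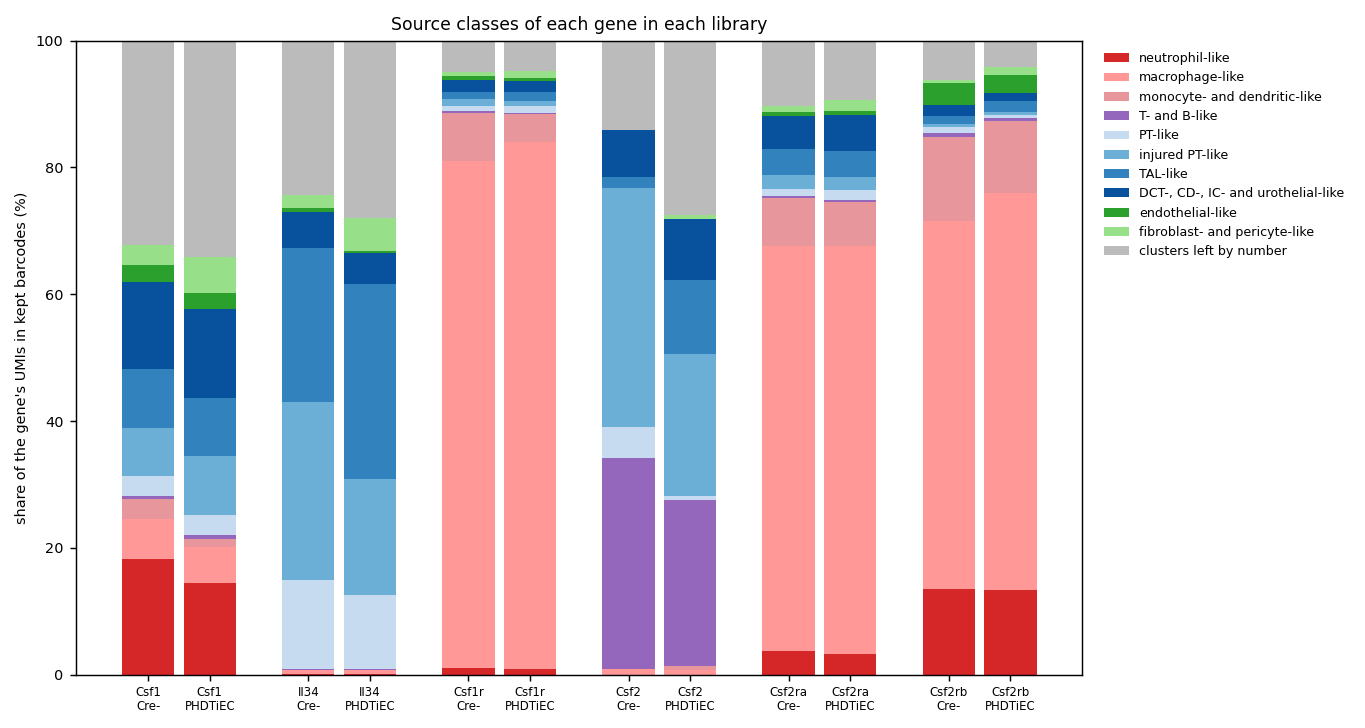
Share of the UMIs of each gene (y axis, % of its UMIs in kept barcodes) that came from each group of cell classes, with 1 stacked bar per gene and library. Csf1 was divided among neutrophil-like, tubular and numbered clusters, Il34 came mostly from tubular classes, and macrophage-like cells held 80.0% and 83.2% of Csf1r.

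Csf1 differed between the libraries beyond counting error in several epithelial and stromal groups and in 1 macrophage-like cluster. Injured PT-like cells, which carry Havcr1 (KIM-1) and Vcam1, had 27.4 CPM (24.0 to 31.2) in Cre- and 48.2 CPM (43.5 to 53.2) in PHDTiEC, a log2 ratio of 0.81 (0.58 to 1.05). The 236 and 394 UMIs came from 111 and 147 of 289 and 288 cells, and the richest cell gave 5.51% and 4.31% of them. The share of thinned cells with Csf1, 7.96% and 6.60%, did not follow this order, and none is read from it. Cluster 6, which carried markers of both intercalated and collecting duct cells and had the highest median depth of any cluster, 50431 UMIs, stood at 18.5 and 30.2 CPM, with a log2 ratio of 0.71 (0.51 to 0.91). The Slc14a2- and Fst-positive cluster 16 had the highest Csf1 level outside neutrophil-like cells, 76.0 CPM in Cre- and 112 CPM in PHDTiEC (log2 ratio 0.56, 0.37 to 0.76).

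TAL-, DCT- and CD-like cells were also higher in PHDTiEC, by smaller log2 ratios of 0.28, 0.28 and 0.26. The intervals were 0.05 to 0.50, -0.02 to 0.58 and 0.01 to 0.51. Over the 6 tubular classes Csf1 stood at 20.9 CPM (19.7 to 22.3) and 27.2 CPM (25.8 to 28.6), and the log2 ratio was 0.38 (0.26 to 0.49). Fibroblast-like cells stood at 35.6 CPM (27.6 to 45.2) and 49.96 CPM (43.5 to 57.1), a log2 ratio of 0.49 (0.09 to 0.91). Their estimated part of free RNA, 26.01% and 35.2% of UMIs, differed between the libraries, and would account for 14.8% and 15.9% of the Csf1 level. Urothelial-like cells stood at 14.96 and 66.6 CPM, but on 7 UMIs in 24 barcodes against 52 in 33, and their summed urothelial markers stood at 5887 and 1677 CPM, so that the barcodes of the 2 libraries were not alike. Whether that part or that make-up bears on the Csf1 values was not tested.

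In macrophage-like cells, which receive the signal, Csf1 itself was low at 8.26 and 8.94 CPM. The Ccl8- and Mrc1-positive cluster 0 had 2.99 CPM from 31 UMIs in Cre- and 5.71 CPM from 65 UMIs in PHDTiEC, with a log2 ratio of 0.93 (0.29 to 1.60). The shares of its thinned cells with Csf1, 0.702% and 0.730%, did not show this difference. Free RNA would give 0.886 and 1.00 CPM of Csf1 over the whole macrophage-like class. The Gpnmb- and Arg1-positive cluster 1 had 14.2 and 12.2 CPM, and over the whole class the log2 ratio was 0.12 (-0.16 to 0.39). No Csf1 UMI was found in 70 and 50 B-like barcodes, where a count of 0 (taken as up to 3 UMIs) allows a level of up to 16.5 and 19.3 CPM.

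Il34, the second ligand of the receptor, was an epithelial and stromal transcript and lay near 0 in every immune class. It was highest in injured PT-like and TAL-like cells. Injured PT-like cells had 94.9 CPM (88.5 to 101.6) in Cre- and 70.4 CPM (64.8 to 76.4) in PHDTiEC. TAL-like cells had 57.0 CPM (52.9 to 61.3) and 71.6 CPM (67.2 to 76.2). Injured PT-like cells led TAL-like cells in Cre-, and the 2 classes overlapped in PHDTiEC. PT-like cells had 38.4 and 27.7 CPM, fibroblast-like cells 28.7 and 34.3 CPM and IC-like cells 19.3 and 19.9 CPM. The Wt1- and Foxd1-positive cluster 15 had 59.5 and 60.9 CPM and cluster 16 had 43.7 and 55.5 CPM.

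Along the nephron the 2 ligands took different places. CD-like cells ranked second for Csf1 among the tubular classes of PHDTiEC and first in Cre-, whereas DCT- and CD-like cells were the 2 lowest for Il34, between 5.23 and 8.50 CPM, of which free RNA would account for 29.0% to 35.4%. In immune classes pooled, 27 Il34 UMIs were found in Cre- and 29 in PHDTiEC, 0.858 and 0.811 CPM. In macrophage-like cells the free RNA estimate, 111% and 138% of the Il34 level, was as large as the level itself. After thinning, 15.6% of injured PT-like cells had an Il34 UMI in both libraries, against 0.125% and 0.115% of macrophage-like cells. The unthinned shares were 78.5% and 71.9% of injured PT-like cells, at medians of 21222 and 22483.5 UMIs, and 0.668% and 0.726% of macrophage-like cells, at 6884 and 7323.5 UMIs.

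Between the genotypes Il34 did not move as 1 block. It was lower in the library labelled PHDTiEC in PT-like cells, with a log2 ratio of -0.47 (-0.68 to -0.26), and in injured PT-like cells, with -0.43 (-0.59 to -0.27). It was higher in TAL-like cells, with 0.33 (0.19 to 0.47), and in cluster 6, with 0.40 (0.14 to 0.65). Over the 6 tubular classes these differences left 41.9 CPM (40.1 to 43.7) against 38.5 CPM (36.9 to 40.2), a log2 ratio of -0.12 (-0.21 to -0.03). Tubular classes held 71.9% (70.2 to 73.5) of the Il34 UMIs in Cre- and 65.5% (63.9 to 67.2) in PHDTiEC. In injured PT-like cells the level of Csf1 was thus higher and that of Il34 lower in PHDTiEC. The shares of thinned cells with each gene, given above, showed neither difference. At a lower resolution the name injured PT-like went to other cells, those of cluster 16, and the ratio was 0.34. That value does not test the ratio of the Havcr1-positive cells. In endothelial-like cells Il34 had 21 UMIs in Cre- and 10 in PHDTiEC, and free RNA alone would give 54.2% and 197% of those levels.

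The 2 ligands were often found in the same cells where both were present. Among TAL-like cells with an Il34 UMI, 35.9% in Cre- and 44.7% in PHDTiEC also had Csf1, against 15.2% and 15.9% of those without. In injured PT-like cells the same shares were 40.5% and 54.6% with Il34 and 30.6% and 41.98% without. Deeper barcodes are more likely to show either gene, and the part of depth in these shares was not tested.

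**Figure D3:**
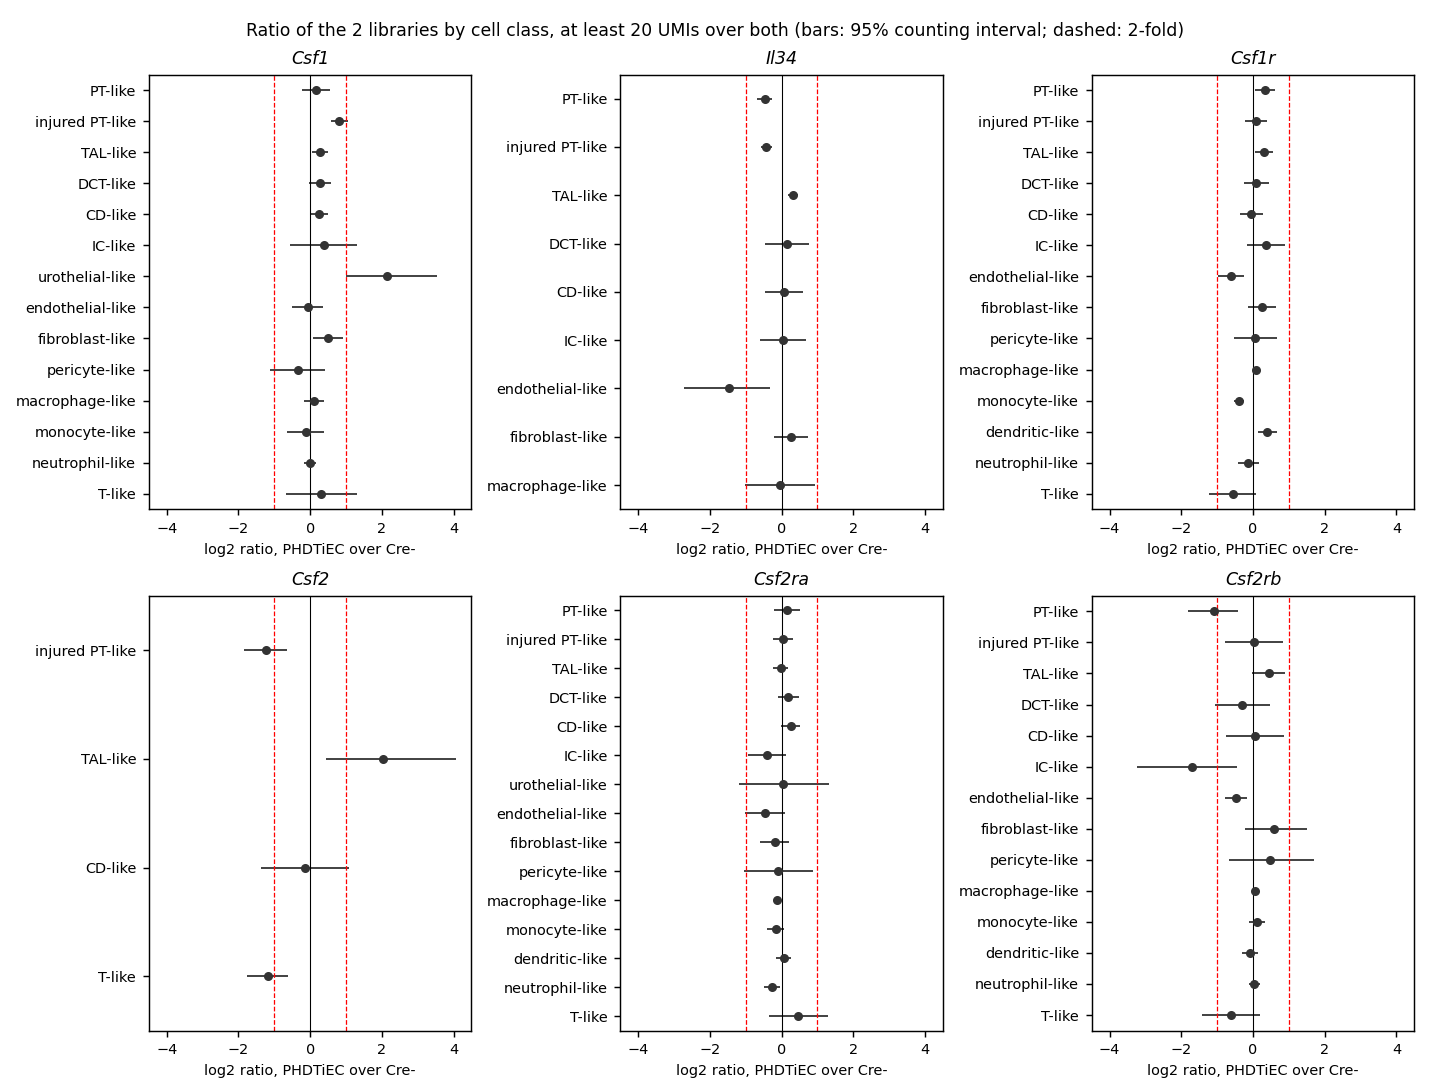
Log2 ratio of PHDTiEC over Cre- (x axis) for each gene in each class with at least 20 UMIs over both libraries (y axis), with 95% counting intervals and dashed lines at 2-fold. Csf1 lies to the right of 0 in injured PT-like and fibroblast-like cells, Il34 to the left in PT- and injured PT-like cells and to the right in TAL-like cells, and the receptors lie near 0 in macrophage-like cells.

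Csf2 was rare, and few cells held most of its UMIs. Only 228 UMIs in 61 cells were found in Cre- and 156 UMIs in 45 cells in PHDTiEC. T-like cells, a known source of GM-CSF, had 29.4 CPM (23.2 to 36.8) from 76 UMIs in 27 of 613 cells in Cre- and 12.9 CPM (9.29 to 17.6) from 41 UMIs in 11 of 740 cells in PHDTiEC. The log2 ratio was -1.18 (-1.77 to -0.62). In PHDTiEC 1 cell gave 27 of the 41 UMIs, and without the richest cell of each library the log2 ratio was -2.44. After thinning, 3.11% (1.82 to 4.94) of T-like cells had a Csf2 UMI in Cre- and 1.19% (0.51 to 2.33) in PHDTiEC. Of thinned macrophage-like cells, 0 of 2395 and 0 of 2617 did, which allows shares of up to 0.125% and 0.115%. Intervals that count UMIs as independent are too narrow where a single cell holds so many.

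Injured PT-like cells held 37.7% of the Csf2 UMIs in Cre- and 22.4% in PHDTiEC, beside 33.3% and 26.3% in T-like cells. They held 86 UMIs in 9 cells in Cre- and 35 UMIs in 6 cells in PHDTiEC, and the richest cell alone held 32 and 15. These cells were few in both libraries, 9 of 289 and 6 of 288. T cell markers summed to 7.44 and 21.6 CPM in this class, with Cd3e and Trdc at 0 in Cre- and none of the 12 at 0 in PHDTiEC, and their part in the Csf2 values was not tested. The 18 Csf2 UMIs of TAL-like cells in PHDTiEC came from 2 cells, 15 of them from 1. Cluster 16 had 19 UMIs in 4 cells and 24 UMIs in 8 cells, 3.88 and 5.28 CPM, and CD-like cells had 13 UMIs in each library. No Csf2 UMI was seen in endothelial-like, pericyte-like, monocyte-like or neutrophil-like cells of either library, where 0 allows up to 0.791 to 3.64 CPM.

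Csf1r, the receptor of CSF-1 and IL-34, marked the mononuclear phagocytes. It was highest in monocyte-like cells, at 935 CPM (885 to 987) in Cre- and 712 CPM (660 to 767) in PHDTiEC. Macrophage-like cells had 642 CPM (632 to 652) and 685 CPM (676 to 695). The order of these 2 classes was clear in Cre-, whereas their intervals overlapped in PHDTiEC. Neutrophil-like cells had 155 and 141 CPM and dendritic-like cells 86.0 and 113 CPM. After thinning, Csf1r was found in 73.0% and 76.0% of macrophage-like cells and in 2.01% and 1.49% of T-like cells, which should lack it. Unthinned shares were 89.6% and 91.4% against 4.08% and 2.70%.

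Within macrophage-like cells the receptor level differed between clusters. Cluster 0, the Ccl8- and Mrc1-positive cells, had 872 CPM in Cre- and 970.5 CPM in PHDTiEC. Cluster 1, the cells with Mmp12, Gpnmb, Arg1 and Trem2, had 485 and 503 CPM, and the cycling cluster 19 had 411 and 396 CPM. Each library gave the same order of these 3 clusters. The shallow cluster 12, with a median of 766 UMIs per barcode, had 458 and 577 CPM and lay below cluster 1 in Cre- and above it in PHDTiEC. Between the libraries the log2 ratio was 0.16 (0.11 to 0.20) in cluster 0, 0.05 (0.00 to 0.11) in cluster 1 and -0.05 (-0.16 to 0.06) in cluster 19, and 0.10 (0.06 to 0.13) over all macrophage-like cells.

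**Figure D4:**
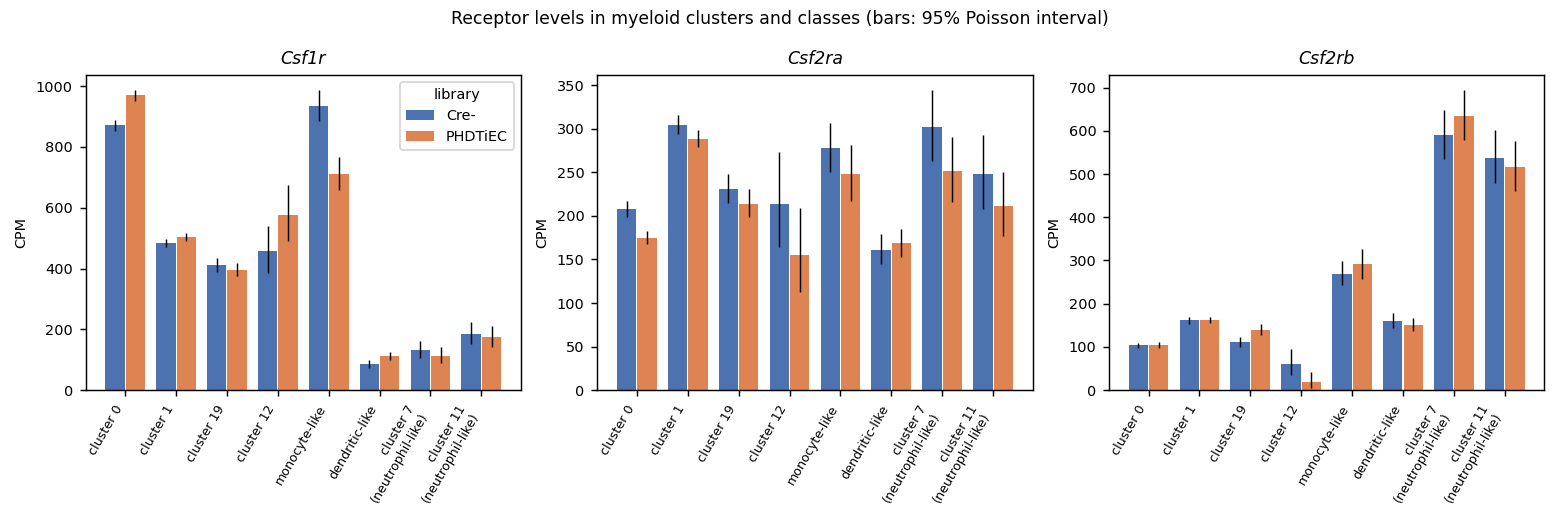
Levels of Csf1r, Csf2ra and Csf2rb (y axes, CPM from 0) in the macrophage-like clusters, in monocyte- and dendritic-like cells and in both neutrophil-like clusters, with 1 bar per library and 95% Poisson intervals. Csf1r was highest in cluster 0 and monocyte-like cells, Csf2ra was higher in cluster 1 than in cluster 0, and Csf2rb was highest in neutrophil-like clusters.

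Monocyte- and dendritic-like cells differed more between the libraries. Csf1r was lower in the monocyte-like cells of PHDTiEC, with a log2 ratio of -0.39 (-0.53 to -0.26), on 1298 UMIs against 692, and 80.1% against 64.6% of thinned cells had a UMI. The monocyte marker list summed to 4365 CPM in Cre- and 6033 CPM in PHDTiEC, and the macrophage list to 1729 and 1372 CPM, so that the barcodes of the class differed in make-up as well. Its part in the Csf1r value was not tested. In dendritic-like cells Csf1r was higher in PHDTiEC, with a log2 ratio of 0.40 (0.12 to 0.67), and 5.76% against 18.6% of thinned cells had a UMI. Among myeloid factors in that class, Cebpb stood at 70.1 and 111 CPM and Zeb2 at 127 and 195 CPM, whereas Irf8 stood at 871 and 830 CPM. These factors were picked after their values were seen. The part of class make-up in this Csf1r value was not tested.

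In tubular, stromal and endothelial classes Csf1r was low, and the free RNA estimate was a large part of the level. Tubular classes pooled had 18.7 and 20.9 CPM, and in the 6 classes taken singly the free RNA estimate was 44.2% to 110% of the level. In fibroblast-like cells, at 39.9 and 46.9 CPM, it was 90.4% and 104%. Endothelial-like cells had 50.8 and 33.2 CPM, of which free RNA would give 54.1% and 91.5%, and macrophage markers summed to 618 and 808 CPM there. The difference lay in cluster 17, the Sox17-positive cells, with 32.9 and 11.8 CPM, whereas cluster 20 had 79.4 and 76.3 CPM. Cluster 27, of 35 and 23 barcodes with T cell genes such as Cd3e beside macrophage markers that summed to 8007 and 9910 CPM, had 405 and 518 CPM of Csf1r. Macrophage-like cells held 80.0% (79.4 to 80.5) of all Csf1r UMIs in Cre- and 83.2% (82.7 to 83.7) in PHDTiEC.

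Csf2ra, the chain that binds GM-CSF, was shared among all 4 myeloid classes at similar levels. Monocyte-like cells had 277 and 248 CPM, neutrophil-like cells 278 and 232 CPM, macrophage-like cells 252 and 232 CPM and dendritic-like cells 161 and 169 CPM. The first 3 classes overlapped with a neighbour in both libraries, and dendritic-like cells lay below them. Cluster 0, the highest macrophage-like cluster for Csf1r, was for Csf2ra below clusters 1 and 19 in both libraries. Cluster 1 had 305 CPM in Cre- and 289 CPM in PHDTiEC, cluster 19 had 231 and 214 CPM, and cluster 0 had 208 and 175 CPM. The intervals of clusters 19 and 0 overlapped in Cre- (214.8 to 248.2 and 199.1 to 216.8) but not in PHDTiEC. In Cre- 31.0% and 32.3% of their thinned cells had a UMI, and in PHDTiEC 33.1% and 27.9%. Cluster 12 had 214 and 155 CPM, with intervals that overlapped those of cluster 0. Between the libraries the log2 ratio was -0.12 (-0.17 to -0.07) in macrophage-like cells, -0.25 (-0.34 to -0.16) in cluster 0 and -0.08 (-0.15 to -0.01) in cluster 1. In thinned macrophage-like cells 35.8% and 32.9% had a UMI, against 0.916% and 1.63% of T-like cells.

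Csf2ra was also counted in tubular classes, at 10.3 to 34.9 CPM. The free RNA estimate was 20.5% to 64.3% of these levels. Csf2ra made up 35.1% (32.2 to 38.1) and 33.6% (31.0 to 36.3) of the UMIs of Csf1r and Csf2ra together in barcodes under 100 UMIs. In tubular classes pooled it made up 56.1% (53.9 to 58.2) and 53.9% (51.9 to 55.9), and in macrophage-like cells 28.2% and 25.3%. The part of free RNA in the tubular values was not tested further.

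Csf2rb, the signalling chain, had its peak in neutrophil-like cells, like Csf1. It stood there at 567 CPM (526 to 610) in Cre- and 580 CPM (539.8 to 622) in PHDTiEC, and 60.1% and 60.6% of thinned cells had a UMI against 1.28% and 1.34% of T-like cells. Monocyte-like cells had 269 and 291 CPM, dendritic-like cells 160 and 151 CPM and macrophage-like cells 129 and 134 CPM. Cluster 1 again stood above cluster 0, with 161 and 162 CPM against 104 and 104 CPM. In macrophage-like cells the log2 ratio between the libraries was 0.06 (-0.01 to 0.13), and 0.03 (-0.12 to 0.18) in neutrophil-like cells. The log2 ratios of the 3 receptor genes in macrophage-like cells thus lay between -0.12 and 0.10, on 3082 to 18855 UMIs per gene and library.

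Outside blood cells Csf2rb was found above free RNA in endothelium. Endothelial-like cells had 62.0 CPM (53.2 to 71.8; 177 UMIs in 67 cells) in Cre- and 44.6 CPM (38.1 to 51.8; 169 UMIs in 76 cells) in PHDTiEC. Free RNA would give 11.5% and 15.8% of that level. The log2 ratio was -0.47 (-0.79 to -0.16). The Sox17-, Igfbp3- and Jam2-positive cluster 17 had 80.6 and 56.5 CPM, and the Plvap- and Kdr-positive cluster 20 had 31.9 and 20.7 CPM. In thinned endothelial-like cells 9.13% and 7.20% had a UMI.

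Cluster 23, whose deep barcodes carried endothelial genes such as Cldn5 and Sox17 together with mural genes such as Rgs5 and Myh11, differed further between the libraries. Csf2rb stood at 70.9 CPM (59.9 to 83.4; 146 UMIs in 40 of 88 cells) in Cre- and 20.3 CPM (14.6 to 27.6; 41 UMIs in 19 of 98 cells) in PHDTiEC, a log2 ratio of -1.80 (-2.34 to -1.29). Csf2rb2 stood at 49.5 and 8.92 CPM, and the log2 ratio was -2.47 (-3.28 to -1.74). The endothelial list was not lower in this cluster, at 5512 CPM in Cre- and 5786 CPM in PHDTiEC, and the pericyte list stood at 7289 and 9427 CPM. Without the richest barcode of each library the log2 ratio of Csf2rb was -2.12. After thinning, 5 of 87 cells and 5 of 98 cells had a Csf2rb UMI, too few to show a difference. This cluster was left without a name, and it was singled out after its values were seen.

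**Figure D5:**
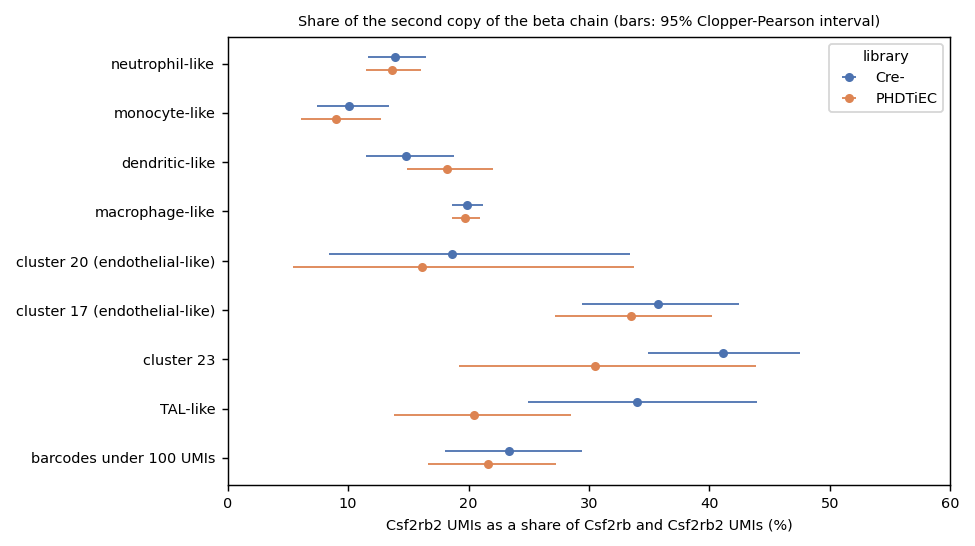
Csf2rb2 UMIs as a share of the UMIs of Csf2rb and Csf2rb2 (x axis, %) in myeloid classes, endothelial clusters, TAL-like cells and barcodes under 100 UMIs (y axis), with 1 point per library and 95% Clopper-Pearson intervals. The share was 9.003% to 19.9% in myeloid classes and 30.5% to 41.1% in clusters 17 and 23.

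The 2 beta chain genes were used in unlike proportions. Csf2rb2 made up 10.1% and 9.003% of their UMIs in monocyte-like cells, 13.9% and 13.7% in neutrophil-like cells, 14.8% and 18.2% in dendritic-like cells and 19.9% and 19.7% in macrophage-like cells. In cluster 17 it made up 35.7% (29.4 to 42.4) in Cre- and 33.5% (27.2 to 40.2) in PHDTiEC, and in cluster 23 41.1% (34.9 to 47.5) and 30.5% (19.2 to 43.9). The intervals of cluster 17 lay above those of all 4 myeloid classes in each library. Cluster 20, the other endothelial-like cluster, had 18.6% and 16.1%, within the myeloid range, and tubular classes pooled had 32.2% (27.4 to 37.3) and 22.8% (18.1 to 28.0). Barcodes under 100 UMIs had 23.3% and 21.6%. In cluster 23 of Cre-, 32 of the 33 cells with a Csf2rb2 UMI also had a Csf2rb UMI, and in endothelial-like cells 26 of 39 and 23 of 39 did. With 92.9% of the coding bases identical, part of either count may belong to the other copy.

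Across the 16 named classes, 70 of the possible gene and class pairs of the 6 members had at least 20 UMIs over both libraries. Of these, 7 differed by 2-fold or more between the libraries, against 4.61% of all 163315 gene and class pairs with as many UMIs. Lower in PHDTiEC were Csf2 in T-like and injured PT-like cells, Csf2rb in PT-like and IC-like cells and Il34 in endothelial-like cells. Higher were Csf1 in urothelial-like cells and Csf2 in TAL-like cells. Most of these rested on few counts or few cells: Csf2rb had 49 and 29 UMIs in PT-like cells and 35 and 6 in IC-like cells, and 14 of the 35 came from 1 barcode. Free RNA would give 57.9% and 99.6% of the Csf2rb level in PT-like cells and 61.6% and 212% in IC-like cells. With at least 50 UMIs, 4 of 60 pairs remained at 2-fold, against 2.02% of all pairs. None of the 7 was a receptor in a myeloid class.

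Genes that act with the members in receiving cells were counted in the same way, from a list of 44 ligands, receptors, signalling molecules, myeloid transcription factors and cell cycle genes. In macrophage-like cells 40 of the 44 had at least 20 UMIs and 0 differed by 2-fold, where 2.71% of the 13516 genes with as many UMIs did. The median log2 ratio of the list was 0.07, against 0.02 over all those genes. Tyrobp, the adaptor DAP12, had 2758 and 2622 CPM, and Spi1, which encodes PU.1, had 385 and 386 CPM. Kitl, the stem cell factor, stood at 10.8 and 16.2 CPM and the factor Maf at 236 and 355 CPM, log2 ratios of 0.59 (0.37 to 0.82) and 0.59 (0.54 to 0.63), the 2 highest of the list in this class. Mki67 and Top2a, which mark dividing cells, had 60.5 and 57.2 CPM and 72.9 and 79.6 CPM. Targets of GM-CSF and STAT5 signalling gave no common direction: Cish stood at 15.8 and 15.2 CPM, Pim1 at 314 and 326 CPM and Socs3 at 318 and 270.3 CPM. The genes named here were picked after their values were seen.

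The same list was counted in monocyte- and neutrophil-like cells. In monocyte-like cells 31 listed genes had enough UMIs and 1 passed 2-fold. Socs1, an inhibitor of cytokine signalling, was lower there in PHDTiEC, at 4.11 against 11.5 CPM, but on 4 and 16 UMIs and with an interval of the log2 ratio from -3.53 to 0.15. In neutrophil-like cells 30 listed genes had enough UMIs and 0 passed 2-fold. The background in these classes was 5.01% of genes in monocyte-like and 3.97% in neutrophil-like cells. In dendritic-like cells Csf1r, Csf2ra and Csf2rb had enough UMIs and 0 of the 3 passed 2-fold, where 4.69% of genes did.

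The genes whose levels followed each member most closely were found over the 16 classes of both libraries, 32 points that share libraries and class definitions, so that the correlation is a description. Csf1r was followed by Clec4a3 (Pearson r = 0.96), Cx3cr1, the fractalkine receptor (0.95), Lair1 (0.95), Fcgr4 (0.94) and Adgre1, the F4/80 antigen (0.94). Cx3cr1 and Adgre1 were among the markers that named the macrophage-like class. Il34 was followed by Entpd2 (0.92), Gm15895 (0.90), Irak1bp1 (0.90), Gpc4 (0.90) and Prr15 (0.90). Csf1 had looser companions, Tirap (0.84), Lonrf1 (0.83), Zswim4 (0.82), Ier3 (0.81) and Rab2a (0.80).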

How the data were processed

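Single-cell suspensions of 1 injured kidney per genotype were profiled with 10x Genomics 3′ v3.1 chemistry. The authors deposited raw UMI counts per gene and barcode from Cell Ranger 4 (mm10), unfiltered and not normalized. Barcodes with 500 to 100000 UMIs, at least 200 genes and at most 50% mitochondrial UMIs were kept, without a doublet caller. Clusters came from Seurat 5.3.0 (R 4.3.3; 2000 variable genes without the members, 20 principal components, resolution 0.8) and were named from marker lists. At resolution 0.8 alone, clusters 6, 15, 16 and 27 were left by number by hand. Counts were summed per class and library. With 1 library per genotype no model was fitted, edgeR 4.0.16 served for TMM scaling as an alternative, and ratios carry counting intervals from scipy 1.17.1. These intervals were tested on simulated independent Poisson counts only. That test cannot show how they hold where 1 cell gives many UMIs or where mice differ. A count of 0 was read as up to 3 counts. Free RNA was estimated from barcodes under 100 UMIs. The members, lists and alternatives were chosen with earlier results of these data known. The text names all members, listed related genes past 2-fold and, per ligand or receptor, the 5 genes of most similar level among those with at least 200 UMIs (log2 of CPM plus 1), and says where others were picked; 1 listed gene is not reported here. Coordinates are GRCm38.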

Additional observations from a re-analysis of the deposited data

How the results depend on the processing

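No paired analysis was possible because each genotype had 1 library. Filters on mitochondrial UMIs, depth, complexity and markers of another class were applied to the same clusters without clustering again. The log2 ratios of Csf1 in endothelial- and fibroblast-like cells, Il34 in tubular cells and Csf1r, Csf2ra and Csf2rb in macrophage-like cells stayed within their counting intervals under all alternatives run. The Csf2 ratio in T-like cells was -2.44 without the richest barcode of each library, an alternative added after the data were seen. The Il34 ratio in injured PT-like cells was -0.26 without barcodes that carried markers of another class. At resolution 0.4 that name went to the cells of cluster 16. The ratio of 0.34 found there, counted below as reversed, is of those other cells. The Csf1 ratio under that name was 0.56 at resolution 0.4, again in the cells of cluster 16 alone. It was 0.54 at resolution 1.2, where the name covered those cells together with Havcr1-positive ones. In the order Cre-, PHDTiEC, the endothelial-like share of Csf1 UMIs was 1.64% and 1.88% without barcodes with markers of another class, an alternative that removed 25.0% and 18.0% of endothelial-like barcodes. The tubular share of Il34 was 67.5% and 61.4% under the same setting, 86.2% and 83.3% at resolution 0.4, 86.1% and 83.0% at resolution 1.2, where clusters left by number here took tubular names, and 74.3% and 68.4% with free RNA subtracted. The macrophage-like share of Csf1r was 83.3% and 87.5% without barcodes with other markers, 76.0% and 79.6% at resolution 1.2 and 86.4% and 90.4% with free RNA subtracted. Member pairs at 2-fold numbered 7 of 70, 4 of 60 with at least 50 UMIs, and 14 of 82 with no minimum, where 13.1% of all pairs passed. Of the values recomputed, 171 moved by less than the counting error or stayed within 1.5 times, 22 moved further and 1 reversed. Differences between mice cannot be told apart from the genotype.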
